A study of Mus musculus with 7 samples.

Results

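Splicing regulators of the SR and hnRNP families were compared between haematopoietic stem cells (HSCs) from Mettl3-deleted mice and HSCs from Cre-negative littermates. The genes were those whose symbol in the deposited table begins with Srsf (11 genes) or Hnrnp (18 genes), and 12 named regulators (Tra2a, Tra2b, Ptbp1, Rbfox2, Mbnl1, Mbnl2, Celf1, Celf2, U2af1, U2af2, Sf3b1 and Zrsr2). Together they made 41 of 23038 genes. The 13th symbol searched, Ptbp3, has no row under that name. Of the 41 genes, 40 had at least 1 RPKM in a group, against 11605 of all genes. RPKM is a read count scaled to gene length and library size, so levels can be compared between genes.

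SR proteins carry RNA recognition motifs and a domain rich in arginine and serine, bind exonic enhancers and help to recruit the spliceosome to weak splice sites. hnRNPs coat nascent transcripts and often oppose exon inclusion, although many of them act in either direction depending on where they bind. Both families regulate their own messages by splicing in exons that lead to decay of the transcript. N6-methyladenosine (m6A), which METTL3 writes on nuclear RNA, meets these factors in the nucleus, where the reader YTHDC1 binds SR proteins and where methylation can expose binding sites of hnRNP C.

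The mutant group was Mx1-cre; Mettl3fl/fl (4 libraries) and the control group was Cre-negative (3 libraries), all from adult C57BL/6 bone marrow. Mice of both groups received 5 intraperitoneal injections, each 10 µg of pIpC. This synthetic RNA duplex triggers interferon, which switches on the Mx1 promoter and with it Cre. Marrow was taken 10 days after the last dose. Each library was made by Smart-seq2 from 150 cells sorted as lineage-negative, Sca1+, cKit+, CD150+ and CD48-. The Mx1 promoter responds to interferon in many tissues, so deletion is not restricted to HSCs, and the control animals lack Cre. The sources used here give neither the exact age nor whether the controls carry the floxed allele.

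The table holds 1 value per gene and group, taken here as the mean of the libraries. Single libraries were not analysed here. There is therefore no SD or test behind any value, and the differences below could not be set against the spread between animals. In bulk RNA of this kind, fewer cells of a type and less RNA per cell cannot be told apart. Mettl3 itself was at 9.60 RPKM in mutants and 49.8 RPKM in controls. All 9 HSC markers examined were above 9 RPKM in both groups, and Kit was at 39.9 RPKM in mutants and 67.4 RPKM in controls. Of the 8 lineage and CD48 markers in the table, Cd3e, Cd8a and Cd79a sat at the value of genes without reads in both groups, Cd48 was at 4.04 RPKM in mutants and 5.33 RPKM in controls, Itgam at 1.65 RPKM in mutants and 0.727 RPKM in controls, and Cd4 at 0.0856 RPKM in mutants and 0.442 RPKM in controls. The 8 together summed to 5.87 RPKM in mutants and 6.61 RPKM in controls. Macrophage markers summed to 123 RPKM in mutants and 31.3 RPKM in controls over 9 genes, of which Cd68 made up 108 RPKM in mutants and 26.4 RPKM in controls, while Csf1r was at the value without reads in both. Erythroid markers summed to 63.9 RPKM in mutants and 37.3 RPKM in controls over 7 genes and neutrophil markers to 5.78 RPKM in mutants and 14.6 RPKM in controls over 6 genes. On a list of 20 genes of DNA replication and mitosis, 17 had the higher mean in mutants, and the list summed to 1896 RPKM in mutants and 1518 RPKM in controls. All 12 immediate early genes were lower in the mutant mean and summed to 738 RPKM in mutants and 2018 RPKM in controls. The part of these other differences in the results below was not tested.

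As a group, the splicing regulators were close to their control level. Of 40 genes with at least 1 RPKM, 22 had the higher mean in mutants and 18 in controls, and 51.7% of all genes at that level were higher. With other scalings of the columns, 20 to 23 of the 40 were higher. Their summed level was 2951 RPKM in mutants and 2920 RPKM in controls, a ratio of 1.01. On the scale used throughout, log2((mutant + 1) / (control + 1)), which understates the difference of low genes, their median difference was 0.02, the same as the 0.02 of all 11605 genes. At least 1.5-fold apart on this scale were 4 of 40 genes (10%), against a background of 26.9% of all genes. Upward, 2 of 40 passed that fold against 14.8% of all genes, and downward 2 of 40 against 12.0%. At 2-fold the count was 1 of 40, against 8.94%.

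These regulators are highly expressed, and highly expressed genes differ less between the group means. Of the 25 regulators with a mean of at least 30 RPKM, 3 (12%) were 1.5-fold apart, against 15.1% of 3514 genes at that level, which is near the background. The median size of the difference, whatever its sign, was 0.17 for these 25 regulators and 0.24 for the 3514 genes. Below 30 RPKM, 1 of 15 regulators was 1.5-fold apart, against 32.0% of 8091 genes. The median level there was 13.0 RPKM in these regulators and 5.93 RPKM in the 8091 genes, so the 2 sets were not matched in level. Within 10% of equality were 12 of the 40 regulators (30%), against 23.2% of all genes. At a mean of at least 30 RPKM the count was 8 of 25 regulators (32%), against 30.8% of the 3514 genes, which is near the background.

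**Figure D1:**
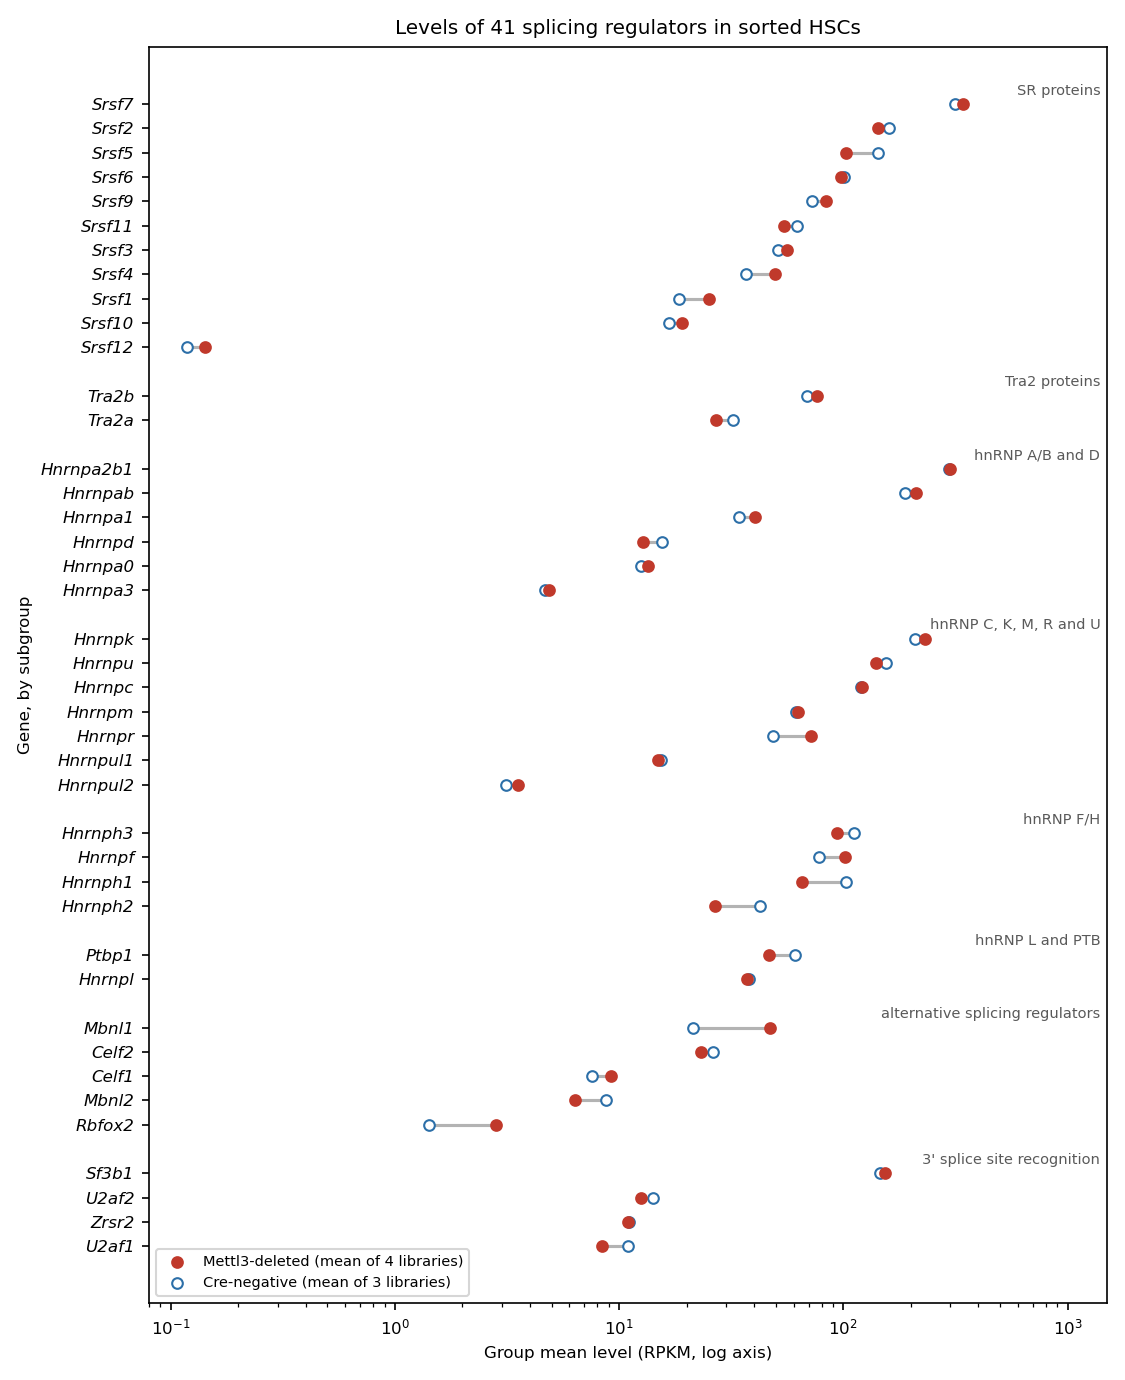
Group mean level in RPKM (log axis) of all 41 splicing regulators, by subgroup, with the Mettl3-deleted mean as filled points and the Cre-negative mean as open points; lines join both means of a gene. Most pairs nearly touch, and the longest lines among genes above 1 RPKM are those of Mbnl1 (47.3 RPKM in mutants and 21.3 RPKM in controls) and Rbfox2 (2.82 RPKM in mutants and 1.41 RPKM in controls).

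The SR proteins were close to level as a family. Srsf7, which couples splicing with mRNA export, was the most abundant regulator, at 344 RPKM in mutants and 315 RPKM in controls. Srsf2, a factor that binds exonic enhancers and whose human counterpart is mutated in myelodysplasia, was at 143 RPKM in mutants and 160 RPKM in controls. Srsf5 was lowest of the family relative to its control level, at 102 RPKM in mutants and 143 RPKM in controls, a log2 difference of -0.48. Srsf1, the founding SR protein and a general activator of exon inclusion, lay on the other side, at 25.2 RPKM in mutants and 18.5 RPKM in controls (0.43). None of the 10 SR genes with at least 1 RPKM passed 1.5-fold, and 6 had the higher mean in mutants and 4 in controls. Their sums were 974 RPKM in mutants and 977 RPKM in controls.

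Close relatives within the SR family differed by unequal amounts. Srsf4 was at 49.5 RPKM in mutants and 36.8 RPKM in controls (0.42), whereas its paralog Srsf6 was at 97.9 RPKM in mutants and 100.4 RPKM in controls (-0.04). Srsf3, the smallest SR protein and an export adaptor like Srsf7, was at 55.9 RPKM in mutants and 51.4 RPKM in controls. Srsf10, a splicing repressor when dephosphorylated, was at 19.1 RPKM in mutants and 16.7 RPKM in controls. Srsf9 stood at 83.8 RPKM in mutants and 72.7 RPKM in controls and Srsf11 at 54.2 RPKM in mutants and 62.2 RPKM in controls. Srsf12 was at 0.143 RPKM in mutants and 0.118 RPKM in controls, which corresponds to about 12 reads per library in mutants and 8 in controls, too few for a statement on direction. The Tra2 proteins, SR-like activators with a serine-arginine domain at each end, were split. Tra2b was at 76.7 RPKM in mutants and 69.1 RPKM in controls, and Tra2a at 27.2 RPKM in mutants and 32.2 RPKM in controls.

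**Figure D2:**
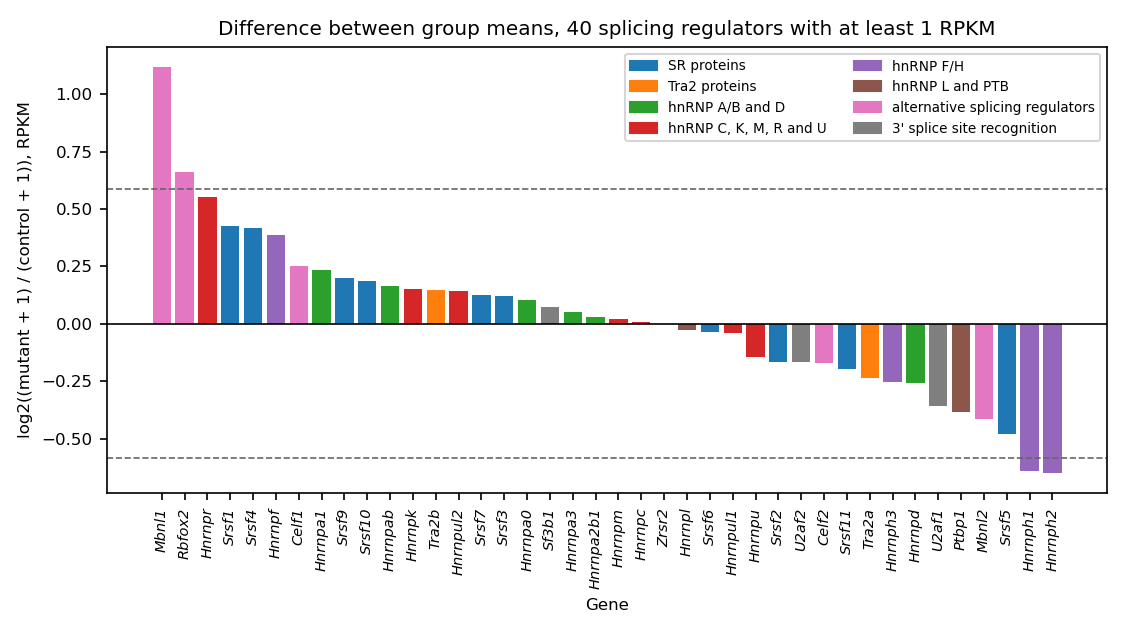
Difference of the group means, log2((mutant + 1) / (control + 1)) in RPKM, for the 40 splicing regulators with at least 1 RPKM, coloured by subgroup; dashed lines mark 1.5-fold. Mbnl1 and Rbfox2 lie above the upper line, Hnrnph1 and Hnrnph2 below the lower one, and the other 36 between the lines.

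Among the hnRNPs, the A/B, D, C, K, M, R and U genes were mostly level. Hnrnpa2b1, the second most abundant regulator and a proposed nuclear m6A reader, was at 301 RPKM in mutants and 295 RPKM in controls. Hnrnpc, whose protein binds uridine tracts that m6A can uncover, was at 121 RPKM in mutants and 120 RPKM in controls. These 2 genes are the ones on the list that also count among m6A readers, with log2 differences of 0.03 (Hnrnpa2b1) and 0.01 (Hnrnpc). Hnrnpk, a poly(C)-binding protein, stood at 231 RPKM in mutants and 208 RPKM in controls and Hnrnpab at 210 RPKM in mutants and 188 RPKM in controls. Hnrnpu, a nuclear matrix protein that binds chromatin and RNA, was at 139 RPKM in mutants and 154 RPKM in controls. Hnrnpa1, a classical silencer of exons, was at 40.5 RPKM in mutants and 34.3 RPKM in controls, Hnrnpd (AUF1, also a regulator of mRNA decay) at 12.8 RPKM in mutants and 15.5 RPKM in controls, and Hnrnpm at 62.6 RPKM in mutants and 61.6 RPKM in controls.

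Hnrnpr was the exception in this set. It was at 71.6 RPKM in mutants and 48.6 RPKM in controls, a log2 difference of 0.55 that lies just inside the 1.5-fold line of 0.58. Syncrip (hnRNP Q), its closest relative and not matched by the symbol rule, was also higher, at 13.3 RPKM in mutants and 7.99 RPKM in controls (0.68). The remaining genes of the set, Hnrnpa0, Hnrnpa3, Hnrnpul1 and Hnrnpul2, lay between 3.13 and 15.4 RPKM and differed by at most 0.14.

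The hnRNP F/H family, which binds runs of guanine, held both genes that were at least 1.5-fold lower. Hnrnph1 was at 65.3 RPKM in mutants and 102 RPKM in controls, 1.57-fold lower in the mutant mean (log2 difference -0.64). Hnrnph2, its X-linked paralog, was at 26.9 RPKM in mutants and 42.7 RPKM in controls, 1.59-fold lower (-0.65). Hnrnph3 was at 93.8 RPKM in mutants and 112 RPKM in controls (-0.25). Hnrnpf, the fourth member, was on the other side, at 102 RPKM in mutants and 78.0 RPKM in controls (0.39). The summed level of the family was 288 RPKM in mutants and 335 RPKM in controls. The coding sequences of Hnrnph1 and Hnrnph2 are each 1347 bases long and identical at 85.9% of them. Their longest identical stretch is 34 bases, and the reads have 100 bases. Untranslated parts were not compared, and whether Hnrnph1 and Hnrnph2 share reads was not tested. Hnrnph2 and Zrsr2 are the X-linked regulators. The Y-linked genes Ddx3y (3.49 RPKM in mutants and 9.22 RPKM in controls) and Eif2s3y (12.3 RPKM in mutants and 22.5 RPKM in controls) were lower in the mutant mean, and Xist, expressed from the inactive X of females, was at 1.94 RPKM in mutants and 2.26 RPKM in controls. The part of a different mix of sexes in the Hnrnph2 value was not tested.

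The sequence most often methylated by the METTL3 complex contains GGACT in DNA letters. The 25 base windows below show where the 3 lower genes of the family share that motif, with its 5 bases in capitals, and the stretch of Hnrnpf most like the Hnrnph1 window. All lie in coding sequence (GENCODE M21, GRCm38) and are printed in the direction of the transcript, from chr11:50381486-50381510 (plus strand), chrX:134605332-134605356 (plus), chr10:63018847-63018871 (minus) and chr6:117924181-117924205 (plus).
Hnrnph1: cattgccggtGGACTtccaggggag
Hnrnph2: cactgccagtGGACTttcaggggcg
Hnrnph3: cattgacgatGGACTaccaggggag
Hnrnpf: cactacctgtGGACCcggaaggcaa

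In Hnrnph1 and Hnrnph2 the window begins at base 425 of the coding sequence, and 21 of 25 bases of Hnrnph2 equal those of Hnrnph1. Hnrnph3, which encodes a shorter protein, has it at base 140 with 22 of 25 equal bases. In Hnrnpf the window also begins at base 425 and 15 of 25 bases are equal. Counted from 1 at the 5′ end of the Hnrnph1 window, Hnrnpf has T15C in the motif; the broader consensus of m6A sites allows C as well as T there. Hnrnpf has 2 copies of GGACT elsewhere, the nearest to its stop codon at chr6:117924095-117924119. The transcripts of Hnrnph2 and Hnrnph3 also hold 2 copies each, and that of Hnrnph1 holds 4. Copies per kb were 0.83 in Hnrnpf, 0.82 in Hnrnph2, 0.90 in Hnrnph3 and 1.65 in Hnrnph1. Methylation was not measured, and a match is not a methylated site. GGACT occurred in the main transcript of 35 of 40 regulators (87.5%), against 91.2% of 10944 genes, with a median of 0.62 copies per kb in regulators and 1.05 copies per kb in all genes. The median G+C content of these transcripts was 44.9% in regulators and 50.4% in all genes.

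**Figure D3:**
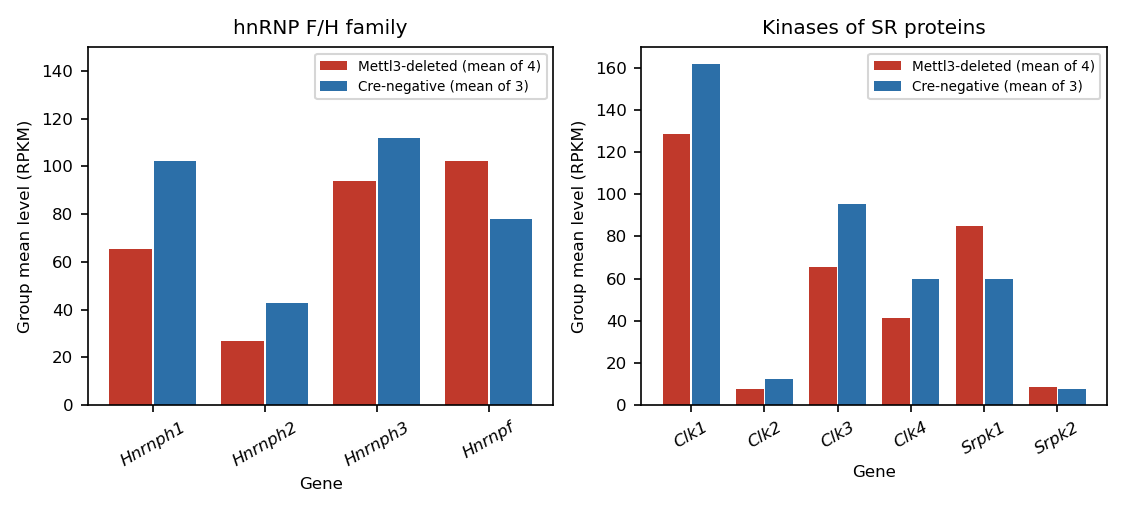
Group mean level in RPKM of the hnRNP F/H family and of the kinases of SR proteins, with Mettl3-deleted bars left of Cre-negative bars; each bar is a mean with no error available. Hnrnph1, Hnrnph2, Hnrnph3 and the 4 Clk genes are lower in the mutant mean, and Hnrnpf, Srpk1 and Srpk2 higher.

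The promoters of Hnrnph1 and Hnrnph2 are shown because both paralogs were lower by a like amount. They run from 250 bases before to 50 bases after the annotated start (RefSeq, GRCm38.p6), at chr11:50376740-50377039 and chrX:134600929-134601228, both on the plus strand. Capitals mark matches on either strand to the GC box (GGGCGG), the CAAT box (CCAAT), the TATA box (TATAAA), the E-box (CACGTG) or an ETS factor motif (CCGGAAG).
Hnrnph1: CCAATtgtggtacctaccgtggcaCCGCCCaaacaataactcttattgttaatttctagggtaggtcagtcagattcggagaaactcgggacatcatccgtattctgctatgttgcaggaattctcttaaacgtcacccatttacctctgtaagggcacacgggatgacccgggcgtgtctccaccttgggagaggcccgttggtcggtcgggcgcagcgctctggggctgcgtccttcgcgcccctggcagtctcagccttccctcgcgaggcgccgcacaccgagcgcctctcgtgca
Hnrnph2: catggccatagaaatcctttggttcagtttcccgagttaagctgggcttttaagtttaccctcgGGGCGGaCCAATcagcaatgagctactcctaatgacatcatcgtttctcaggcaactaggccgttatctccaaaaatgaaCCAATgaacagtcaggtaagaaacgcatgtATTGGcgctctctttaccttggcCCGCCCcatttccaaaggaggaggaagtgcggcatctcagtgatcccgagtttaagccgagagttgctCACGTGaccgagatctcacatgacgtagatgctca

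Hnrnph1 has 5 promoter entries, and the one shown belongs to the transcript used above. It holds 1 GGGCGG and 1 CCAAT match. The Hnrnph2 promoter holds 2 GGGCGG and 3 CCAAT matches and 1 CACGTG, and no match overlaps another in either. GGGCGG was found in 45 of 56 promoters of 38 regulators (80.4%), against 35.7% of all 32851 promoters in the table. CCAAT was found in 48.2% of the regulators' promoters and 37.4% of all, CCGGAAG in 17.9% of the regulators' and 8.86% of all, CACGTG in 12.5% of the regulators' and 7.15% of all, and TATAAA in 10.7% of the regulators' and 13.6% of all. The background was not limited to genes expressed here, whereas 40 of the 41 regulators had at least 1 RPKM. Whether these shares differ from those of other expressed genes was not tested.

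The tissue-biased regulators of alternative splicing held both genes at least 1.5-fold higher. Mbnl1, a zinc finger protein that promotes adult splicing patterns and is sequestered by repeat RNA in myotonic dystrophy, was at 47.3 RPKM in mutants and 21.3 RPKM in controls, 2.22-fold higher. Its log2 difference of 1.12 was the largest of the 40, and it was the only one of them at 2-fold or more on this scale. The gene spans chr3:60472559-60629750 (GRCm38.p6). Mbnl2 was on the other side, at 6.33 RPKM in mutants and 8.78 RPKM in controls (-0.42). Mbnl3, which the symbol rule does not include, was at 17.2 RPKM in mutants and 11.4 RPKM in controls (0.56). Rbfox2, which binds GCATG and controls splicing in muscle, brain and epithelium, was at 2.82 RPKM in mutants and 1.41 RPKM in controls. This is 2.00-fold by the means and 0.66 on the pseudocount scale, and it corresponds to about 559 reads per library in mutants and 235 in controls.

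The GGACT nearest to the end of the coding sequence is shown for these genes, with the motif in capitals, because they differed most upward. In Mbnl1 it lies within the coding sequence (chr3:60529694-60529718, plus strand, GRCm38) and in Rbfox2 78 bases after its end, in the 3′ UTR (chr15:77084073-77084097, minus strand).
Mbnl1: tttcaaagggGGACTtgctcacgac
Rbfox2: tactagtagaGGACTctatagcaag

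The transcript used for Mbnl1 holds 2 copies of GGACT in 5655 bases, and that for Rbfox2 holds 10 in 6907 bases. Copies per kb were 0.35 in Mbnl1 and 1.45 in Rbfox2. Whether the motif bears on the level of either gene was not tested. Of the CELF proteins, which oppose MBNL proteins at many exons, Celf1 was at 9.24 RPKM in mutants and 7.59 RPKM in controls (0.25) and Celf2 at 23.1 RPKM in mutants and 26.1 RPKM in controls (-0.17). The polypyrimidine tract binders were split as well. Ptbp1, a repressor of neuronal and muscle exons, was at 46.6 RPKM in mutants and 61.0 RPKM in controls (-0.38). Rod1, the older symbol under which the table lists the Gene ID of Ptbp3, was at 15.4 RPKM in mutants and 9.27 RPKM in controls (0.68). Hnrnpl, which binds CA repeats, was at 37.3 RPKM in mutants and 37.98 RPKM in controls. The table also lists Hnrnpll as Hnrpll, at 12.7 RPKM in mutants and 16.9 RPKM in controls, and Hnrnpdl as Hnrpdl, at 36.9 RPKM in mutants and 36.4 RPKM in controls.

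**Figure D4:**
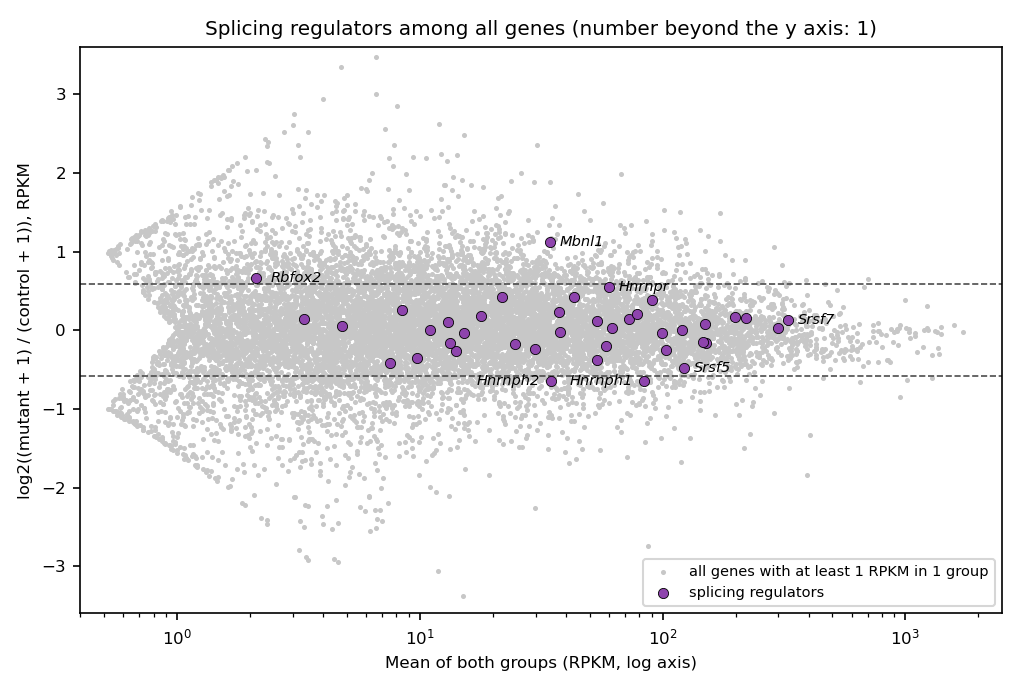
Difference of the group means, log2((mutant + 1) / (control + 1)) in RPKM, against the mean of both groups (log axis) for the 11605 genes with at least 1 RPKM, with the 40 splicing regulators as large points; dashed lines mark 1.5-fold. The cloud narrows toward high levels, and 36 of 40 regulators lie between the lines.

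Of the 4 genes that recognise the 3′ splice site, 3 were below their control mean and 1 above it, although Zrsr2 turned to above after scaling both columns to the same sum. U2af1, the small subunit of U2AF that contacts the AG dinucleotide, was at 8.37 RPKM in mutants and 11.0 RPKM in controls (-0.36). U2af2, the large subunit that binds the polypyrimidine tract, was at 12.5 RPKM in mutants and 14.2 RPKM in controls (-0.17). Zrsr2, which serves the minor spliceosome, was at 11.0 RPKM in both groups. Sf3b1, the branch site factor, was far more abundant, at 153 RPKM in mutants and 145 RPKM in controls (0.08). Reads of Zrsr2 could be shared with its retrogene Zrsr1, listed at 1.03 RPKM in mutants and 1.47 RPKM in controls.

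Many of the regulators, but not all, had a feature of annotation that the symbol rule did not use. GENCODE M21 lists at least 1 transcript ending in nonsense-mediated decay for 24 of 40 (60%), against 30.4% of 10944 genes with at least 1 RPKM. The share was 9 of 10 among SR proteins, 2 of 2 among Tra2 proteins and 8 of 18 among genes named Hnrnp. Within the last, the F/H family had 1 of 4. The share was 3 of 4 among genes of 3′ splice site recognition, 2 of 2 for Hnrnpl and Ptbp1, and 1 of 5 among the tissue-biased regulators of alternative splicing. Retained introns were annotated for 77.5% of the regulators and 60.8% of all genes, and the median number of transcripts was 9 per regulator and 5 per gene. These are properties of the annotation, not of the libraries. A value per gene does not separate productive transcripts from those that decay, so a change of splicing at a constant level would not show in these data. Exons of 17 of the 41 regulators overlap exons of another annotated gene. For 8 of them (Hnrnpab, Hnrnph3, Hnrnpk, Hnrnpm, Hnrnpu, Hnrnpul2, Ptbp1 and Srsf2) that gene is protein-coding. Whether counting used strand is not given, and the neighbours of Hnrnpm and Hnrnpul2 lie on the same strand. The values of these 8 may therefore hold reads of a neighbour, which was not tested. None of these 8 was 1.5-fold apart.

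The lists of hnRNPs by other names, kinases, snRNPs, catalytic steps, other factors, decay and nuclear m6A reading held 136 other splicing genes. Of these, 81 were above and 55 below their control mean, with a median of 0.06. At least 1.5-fold apart were 17 (12.5%), against the 26.9% of all genes given above. Their median level was 34.4 RPKM, and at a mean of at least 30 RPKM the background was 15.1%. Among hnRNPs by protein name that the symbol rule misses, 3 of 9 were higher and 6 lower, and 4 of the 9 (44.4%) were 1.5-fold apart. Pcbp1 (hnRNP E1), a poly(C)-binding protein, was at 184 RPKM in mutants and 107 RPKM in controls, and Raly, a relative of hnRNP C, at 84.7 RPKM in mutants and 140 RPKM in controls. Among genes of nuclear m6A reading, Ythdc1 was at 44.4 RPKM in mutants and 27.3 RPKM in controls and Rbmx (hnRNP G) at 17.3 RPKM in mutants and 27.8 RPKM in controls, while Hnrnpa2b1 and Hnrnpc were level as given above.

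The Clk and Srpk kinases, which phosphorylate the arginine-serine domain, showed opposite directions, a pattern picked out after the values were seen. The nuclear Clk kinases were all lower in the mutant mean. Clk1 was at 128 RPKM in mutants and 162 RPKM in controls, Clk2 at 7.46 RPKM in mutants and 12.3 RPKM in controls, Clk3 at 65.7 RPKM in mutants and 95.4 RPKM in controls, and Clk4 at 41.1 RPKM in mutants and 59.8 RPKM in controls. Srpk1, which acts in the cytoplasm and drives SR proteins into the nucleus, was at 85.0 RPKM in mutants and 59.6 RPKM in controls, and Srpk2 at 8.51 RPKM in mutants and 7.54 RPKM in controls. The other kinases on the list were higher in the mutant mean. Prpf4b was at 19.1 RPKM in mutants and 13.4 RPKM in controls (0.48), and Dyrk1a at 5.88 RPKM in mutants and 5.60 RPKM in controls (0.06). On the whole list of 11 kinases and phosphatases, 5 were higher and 6 lower, and Clk2 (-0.65) and Ppp1cb (0.59) were the genes 1.5-fold apart. Ppp1cb, a phosphatase catalytic subunit, was at 26.3 RPKM in mutants and 17.2 RPKM in controls.

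In the core snRNP lists more genes were above than below their control mean, where 51.7% of all genes were above it. At a mean of at least 30 RPKM that share was 49.9%. Within 10% of equality were 5 of 10 U1 genes, 4 of 16 U2 (25%), 8 of 13 Sm and LSm and 8 of 15 tri-snRNP genes. The background was 23.2% of all genes and 30.8% of genes with a mean of at least 30 RPKM, so the U2 share was near it. Whether such small differences keep their direction under other scalings was not tested for these lists. The U1 list had 7 of 10 genes higher (median 0.08), with Snrnp70 at 65.4 RPKM in mutants and 44.5 RPKM in controls and Prpf40b at 10.9 RPKM in mutants and 13.5 RPKM in controls. The U2 and branch site list had 10 of 16 higher (0.16), with Sf3b3 at 63.6 RPKM in mutants and 46.5 RPKM in controls and Sf3b2 at 67.5 RPKM in mutants and 90.4 RPKM in controls. The Sm and LSm core had 10 of 13 higher (0.07), with Snrpf at 57.0 RPKM in mutants and 45.8 RPKM in controls and Snrpd3 at 196 RPKM in mutants and 230 RPKM in controls. None of these 39 genes was 1.5-fold apart, against 26.9% of all genes and 15.1% of genes with a mean of at least 30 RPKM. The second share is nearer in level, as list medians were 37.3 RPKM (U1), 60.2 RPKM (U2) and 159 RPKM (Sm and LSm). In the tri-snRNP list 11 of 15 were higher (0.07), and Cd2bp2, a U5 protein, was at 20.6 RPKM in mutants and 10.9 RPKM in controls, while the helicase gene Snrnp200 was at 18.3 RPKM in mutants and 25.1 RPKM in controls.

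In the list of the PRP19 complex and the catalytic steps 6 of 19 genes were 1.5-fold apart, of which 5 were lower and 1 higher, a share of 31.6% against the background of 26.9%. Plrg1, a core subunit of that complex, was at 106 RPKM in mutants and 224 RPKM in controls (-1.08). Cwc22, which brings an exon junction factor to the spliceosome, was at 9.06 RPKM in mutants and 4.79 RPKM in controls. Of 29 other alternative splicing factors 15 were higher and 14 lower (median 0.00), with Mbnl3 highest (values above) and Rbm10 lowest, at 13.2 RPKM in mutants and 22.8 RPKM in controls. Factors of the exon junction and of nonsense-mediated decay were higher in 9 of 13 (median 0.17). There Magohb, an exon junction subunit, was at 61.0 RPKM in mutants and 33.9 RPKM in controls, and Smg1, the kinase that phosphorylates UPF1, at 1.80 RPKM in mutants and 2.43 RPKM in controls.

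**Figure D5:**
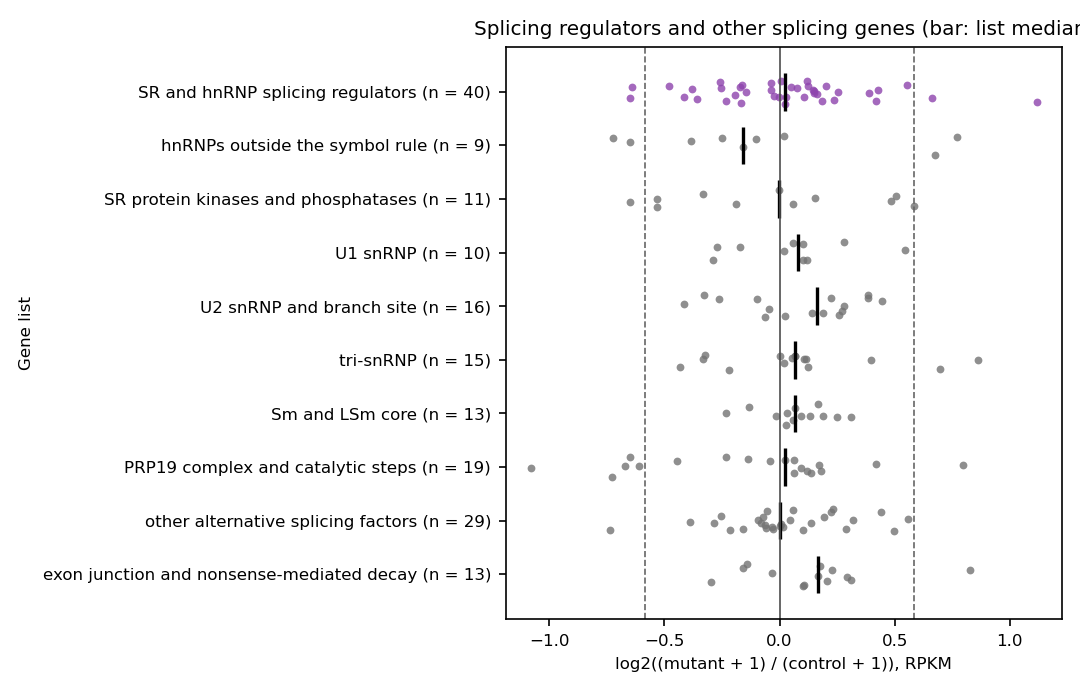
Difference of the group means, log2((mutant + 1) / (control + 1)) in RPKM, of each gene with at least 1 RPKM in the splicing regulators and in 9 lists of other splicing genes; points are genes, bars list medians and dashed lines 1.5-fold. List medians run from -0.16 to 0.17, and the lowest point is Plrg1 (-1.08).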

How the data were processed

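Levels were taken from the deposited RPKM, which the authors made as 1 pooled value per gene for each group, per the file headers. They were taken as means over libraries, though no header states how libraries were combined. The submitters' processing notes name mm10 as build and list edgeR and Picard; the roles of both, and the aligner and annotation, stay unstated in the sources used here. In 8498 genes (36.9%) the mutant/control ratio was 0.841, read here as genes without reads at an offset. Were that offset 1 read per library, the libraries would have harmonic means of 28.7 Mreads in mutants and 24.1 Mreads in controls; read numbers in the text use these and GENCODE M21 lengths, and are rough.

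Differences were computed with Python 3.11.15 and pandas 2.3.3 with a pseudocount of 1 RPKM, and 1.5-fold and 2-fold are rules of size, not tests. The script was tested on simulated data, in which fixed changes without noise were put into the control column. This checks the calculation only, not how reliable differences near 1.5-fold are. Genes given in full were the 6 highest, 6 lowest and 6 most abundant regulators, those at 2-fold or more, 6 pairs of paralogs, the extremes of each pathway list, and genes named as chosen later. Values of some marker genes are not reported here. Members and lists were chosen with earlier results of these data known. Gene identifiers were matched to RefSeq (GRCm38.p6) for 41 of 41 regulators. Motifs were sought in the GENCODE transcript of each gene ranked first by APPRIS, support level and coding length.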

Additional observations from a re-analysis of the deposited data

How the results depend on the processing

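With a pseudocount of 0.1 RPKM, with none, after either rescaling of the mutant column, or with all 41 genes, the numbers of regulators at least 1.5-fold apart, higher and lower stayed within 1.5 times of those reported. Requiring 10 RPKM in a group left 1 gene at least 1.5-fold higher, because Rbfox2 drops out. With the symbols Srsf and Hnrnp alone, 2 genes were 1.5-fold apart, 0 were 1.5-fold higher, 0 were 2-fold apart and 11 were lower in all, because fewer genes are counted. The added setting, chosen after seeing the data, that includes Rod1, Hnrpll and Hnrpdl gave 5 genes 1.5-fold apart. Directions near 0 turned with scaling: dividing by the median ratio gave Hnrnpm -0.0018 and Hnrnpc -0.017, and equal column sums gave Zrsr2 0.0087. Leaving out replicates was not run, because the values are group means. No paired analysis was possible because each group has a single averaged value. Depth limits Srsf12, which rests on few reads.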
